A study of Gallus gallus with 14 samples.

Results

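The subject of this section is the transcriptome of the untreated chick retina, described across genes in the 7 libraries that the labels call control retina, out of 14 libraries in the series. These 7 were chosen by that label, and no measured value entered the rule, though earlier results of these data were known. All 7 came from wild type White Leghorn chickens whose age label reads postnatal day 3, and the labels give no sex. The other 7 libraries came from retinas behind a -10 D lens worn for 3 days, and only their spread between libraries is used below, never their levels. Retinas were frozen after a wash in an RNA preservative, and the libraries were made from total RNA after removal of ribosomal RNA, so transcripts without a poly(A) tail were also sequenced. Replicates are numbered 1 to 7 in the order of the deposited samples, a number that names a library and does not pair it with any other. The labels do not say whether each library came from a separate bird, so the spread between libraries covers whatever differed between these samples, technical differences included.

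The retina turns light into neural signals in 3 cell layers. Rods and cones absorb light with opsins and lower their cyclic GMP through transducin and phosphodiesterase, bipolar cells carry the signal inward under the influence of horizontal cells, amacrine cells shape it, and ganglion cells send it to the brain. Müller glia span the whole tissue and recycle the transmitters glutamate and GABA. The chicken is a day-active bird with a cone-rich retina, with cones that carry red, green, blue and violet opsins beside the rods. Its retina has no blood vessels of its own, its ganglion cell axons are myelinated within the eye, and its photoreceptors depend on intense glycolysis.

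The deposited table listed 18631 genes in CPM, the reads of a gene scaled to a common library total by the authors. The listed genes held 30.8% to 33.3% of that total. The most frequent small value in a library, taken as a single read, implied 31.4 to 41.4 M reads per control library (37.4 ± 3.06 M, SD, n = 7). Where a gene had no read, its level could still have reached 0.0724 to 0.0955 CPM, depending on the library (3 counts, counting error only). Of the listed genes, 11203 had a mean of at least 1 CPM over the 7 libraries, and 10876 to 11476 genes reached 1 CPM in a given library. No pair of libraries was a copy. Over the 21 pairs the mean squared difference was 5.62 to 42.1 times the variance of counting error (chi-square per degree of freedom, median 15.5). There is 1 group, so no test between groups was made and no p-value is given.

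The genes with the most reads were led by RN7SL1, a noncoding RNA found in all cells, and by SYNE1. The 10 genes with the highest mean held 7.58% of the listed CPM, the 50 highest held 13.8%, and 858 genes held 50%. Without RN7SL1, ribosomal RNA and the mitochondrial sequence, the 10 highest held 3.43% and the 50 highest 9.59%. RN7SL1, the RNA of the signal recognition particle that brings secreted and membrane proteins to the endoplasmic reticulum, was the most abundant at 12908 ± 1315 CPM (SD, n = 7), or 4.05% of the listed CPM (chromosome 5, 57738304 to 57738594). It lay between 10875 and 14640 CPM in every library, with replicate 1 lowest and replicate 5 highest. The RN7SL1 row overlaps LRR1, on the same strand, at a mean of 32.2 CPM. SYNE1, which encodes a giant protein that links the nucleus to the cytoskeleton, was next at 3079 ± 172 CPM and lay between 2909 to 3420.5 CPM. OIP5-AS1, a conserved long noncoding RNA, reached 811 ± 22.1 CPM (SD, n = 7) and varied little (794 to 855 CPM).

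Ribosomal and mitochondrial RNA also stood among the 25 highest, at levels that differed strongly between libraries. The mitochondrial row EYY68_mgp13, which spans 11988 bases of the mitochondrial genome, had 906 to 2218 CPM with a median of 1171. The nuclear ribosomal RNA genes LOC112533599 and LOC112533601 had 570.1 to 3248 and 368 to 1198 CPM, and the mitochondrial ribosomal RNA EYY68_mgr01 had 354 to 2940.2 CPM with a median of 457. Replicate 2 was the highest library for all 4 of these rows. The 9 listed ribosomal RNA genes together held 0.456% to 2.65% of the listed CPM (0.974% ± 0.781, SD, n = 7), in libraries made with a kit that removes ribosomal RNA.

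The other genes of the top 25, grouped here by their known roles after ranking, included several of the neuronal skeleton and the synapse. ANK2 and ANK3, ankyrins that anchor channels to the membrane skeleton, had 1097 ± 69.98 CPM and 605 ± 41.5 CPM (SD, n = 7). DST, a linker of the cytoskeleton, had 881 ± 72.5 CPM, and DYNC1H1, the heavy chain of the motor that carries cargo back along axons, had 684 ± 25.5 CPM. The synaptic genes in this group were SYT1, the calcium sensor of vesicle release, at 662 ± 48.3 CPM, PCLO, an active zone scaffold, at 542 ± 57.4 CPM, and SNAP25, a component of the fusion machinery, at 504 ± 27.1 CPM. DLG2, a postsynaptic scaffold, had 586 ± 30.4 CPM, NBEA, which acts in membrane traffic to synapses, 521 ± 30.04 CPM, CLSTN1, an adapter for axonal transport, 508 ± 18.2 CPM, and APLP2, a relative of the amyloid precursor protein, 588 ± 15.8 CPM. PTN, the growth factor pleiotrophin, had 676 ± 28.3 CPM, and APC, a regulator of WNT signalling on chromosome Z, had 539.8 ± 77.4 CPM. Many of these genes have long annotated spans, introns included. The 19 protein coding genes in the top 25 had a median span of 69978 bases. Over all protein coding genes with a mean of at least 1 CPM it was 20209. A longer transcript gives more reads per molecule, but span is not transcript length. What part length had in this order was not tested.

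**Figure D1:**
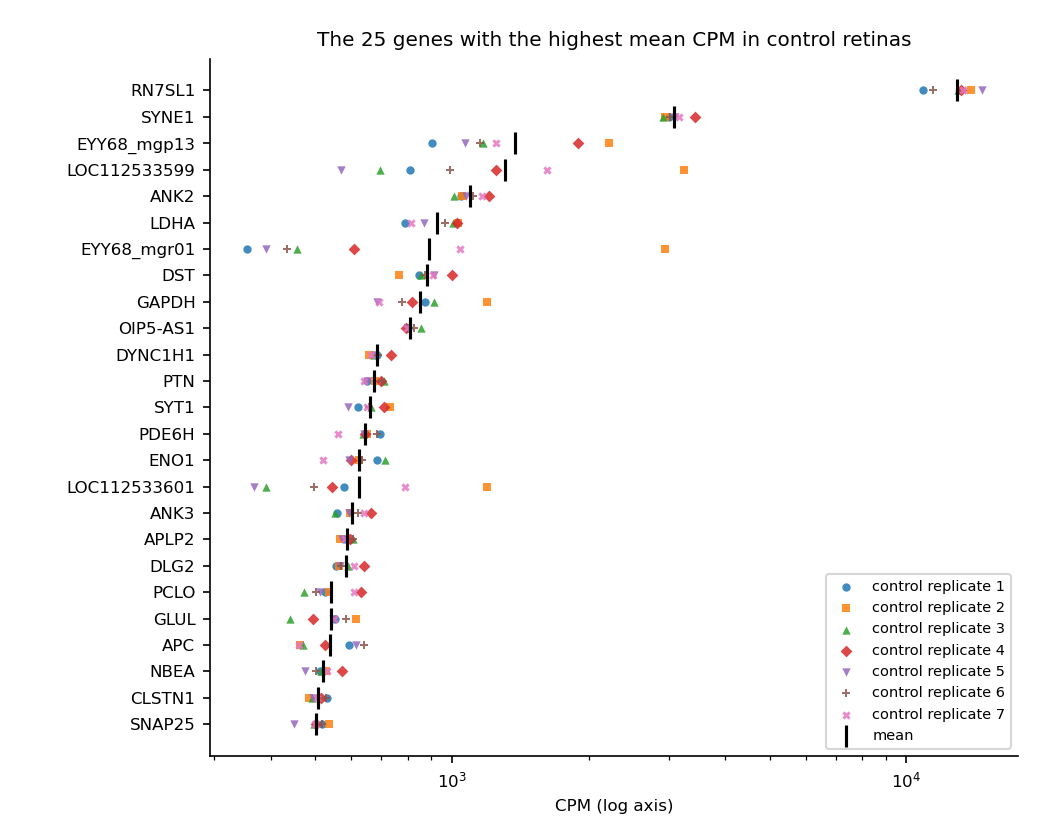
CPM (log axis) of the 25 genes with the highest mean, with a symbol for each of the 7 control libraries and a bar for the mean. RN7SL1 lies between 10875 and 14640 CPM, and the rows whose symbols spread most are ribosomal or mitochondrial, with control replicate 2 (squares) at the right of each.

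Levels of different genes compare only per length. No transcript lengths were at hand, so the mean CPM was divided by the annotated gene span, introns included, in units of 1000 bases (kb), which understates the level of genes with long introns. On that scale the leading protein coding genes were short and of broad use, with glycolytic enzymes and cone genes among them. UBB, a gene for ubiquitin, led with 228 CPM per kb, followed by GAPDH, a glycolytic enzyme, with 217, and LDHA, which turns pyruvate into lactate, with 158. GNGT2, the gamma subunit of cone transducin, came next with 143 CPM per kb, above GLUL with 82.8 and PDE6H, the inhibitory subunit of cone phosphodiesterase, with 76.97. RGS9BP, the membrane anchor of the protein that ends the light response, had 63.03 CPM per kb, and the chaperones HSP90AA1 and HSPA8 had 61.7 and 59.1. The glycolytic enzymes ALDOC, TPI1 and PGAM1 had 80.02, 70.2 and 68.1 CPM per kb, so 5 of the 15 leading genes belonged to the glycolysis list.

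Among the function lists, glycolysis had the highest summed CPM and the highest median per kb of span. Of its 18 listed genes, 14 had at least 100 CPM, and their summed level was 5192 ± 448 CPM (SD, n = 7), between 4541 in replicate 5 and 5938 in replicate 2. LDHA had 929 ± 104 CPM, GAPDH 851 ± 175 CPM, ENO1, an enolase, 625 ± 63.1 CPM, and PKM, pyruvate kinase, 453 ± 57.05 CPM (SD, n = 7). The lactate dehydrogenase gene LDHB, at 129 ± 14.4 CPM, stood well below LDHA also per kb of span (13.3 against 158). Nuclear genes of oxidative phosphorylation were lower, with 0 of 21 listed genes at 100 CPM and a sum of 432 ± 29.02 CPM, led by SDHA, a subunit of succinate dehydrogenase, at 59.3 ± 4.63 CPM. The median per kb of span was 14.6 for the glycolysis list and 2.72 for the oxidative phosphorylation list.

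Of the 32 listed ribosomal protein genes, all had at least 10 CPM, 5 had at least 100, and the sum ran from 1625 CPM in replicate 7 to 1872 in replicate 6. The 17 listed genes of synaptic release summed to 2681 ± 149.8 CPM (SD, n = 7). Per kb of span the median was 11.2 CPM for the ribosomal protein list, near that of glycolysis, 1.33 for the clock list and 0.931 for the synaptic list. Of 23 listed circadian clock genes, 18 had 10 CPM or more, led by the nuclear receptor RORA at 266 ± 10.8 CPM and the transcription factor HLF at 224 ± 11.5 CPM, and with melanopsin, OPN4, at 122 ± 11.9 CPM, a row that overlaps WAPL on the opposite strand at 137.5 CPM. The enzymes of melatonin synthesis were lower: TPH1 had 14.8 ± 1.78 CPM, ASMT 12.1 ± 1.84 CPM and AANAT 2.96 ± 0.426 CPM (SD, n = 7). Genes of cell division were low, with 0 of 19 listed genes at 10 CPM, led by PCNA at 5.66 and MKI67 at 3.84 CPM. Of 17 listed interferon response genes, 7 had a mean of at least 1 CPM, and the induced genes MX1, RSAD2 and IFI6 stayed at or below 0.0357 CPM in the mean. Among neuropeptides, neurotensin (NTS) led at 74.4 ± 8.24 CPM, followed by proenkephalin (PENK) at 19.1 ± 2.59 CPM and proglucagon (GCG) at 16.5 ± 2.32 CPM (SD, n = 7).

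The tissue label was checked against markers of retinal cells and of the tissues around the retina. The 3 markers GNAT2, GLUL and GAD1, of cones, Müller glia and amacrine cells, were all high. GNAT2, the cone transducin alpha subunit, had 149 to 225 CPM with a median of 166 (chromosome 26, 1253145 to 1258008). It was lowest in replicate 5 and highest in replicate 4, a spread of 1.51-fold on the CPM + 1 scale, on which all such spreads are given. GLUL, the glutamine synthetase of Müller glia, had 440.3 to 615 CPM with a median of 551 (chromosome 8, 6016293 to 6022835), lowest in replicate 3 and highest in replicate 2. GAD1, the enzyme that makes GABA in many amacrine cells, had 286 to 343 CPM with a median of 312 (chromosome 7, 18202341 to 18226952), lowest in replicate 1 and highest in replicate 4. None of the 3 reached a 2-fold spread, with 1.396-fold for GLUL and 1.198-fold for GAD1.

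Ordered by the median CPM of their listed markers, markers shared by rods and cones came first and horizontal cells last among 9 lists, with rods below Müller glia and bipolar cells. Markers shared by rods and cones had a median of 195 CPM, cones 164, Müller glia 85.8, bipolar cells 28.6, rods 17.9, amacrine cells 15.3, ganglion cells 5.41, oligodendrocytes 4.97 and horizontal cells 1.496. From cones to ganglion cells each list lay above the next in 7 of 7 libraries, and so did oligodendrocytes above horizontal cells. Some of these steps were small in a library. The lowest ratio was 1.02 for cones over Müller glia, 1.10 for bipolar cells over rods and 1.08 for rods over amacrine cells. It was 2.47 for Müller glia over bipolar cells and 1.21 for amacrine over ganglion cells. The neighbours that could not be ordered were the shared photoreceptor list and cones, in that order in 5 of 7 libraries, and ganglion cells and oligodendrocytes, in that order in 2 of 7. By the mean of log2(CPM + 1) over markers, oligodendrocytes came last at 2.70, next to horizontal cells at 2.72. The cone median falls on OPN1LW, a gene that itself varied between libraries. In bulk RNA, fewer cells of a type and less RNA per cell cannot be told apart, and the medians also depend on which markers were listed, so this is an order of marker RNA and not of cell numbers.

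Divided by gene span, the order changed at 3 of 36 pairs of these 9 lists. Cones then came before the shared photoreceptor list (8.73 against 8.28 CPM per kb), rods before bipolar cells (1.94 against 1.54), and ganglion cells before amacrine cells (1.26 against 1.17). Müller glia remained next to the photoreceptors at 5.51 CPM per kb, and horizontal cells remained last at 0.237.

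**Figure D2:**
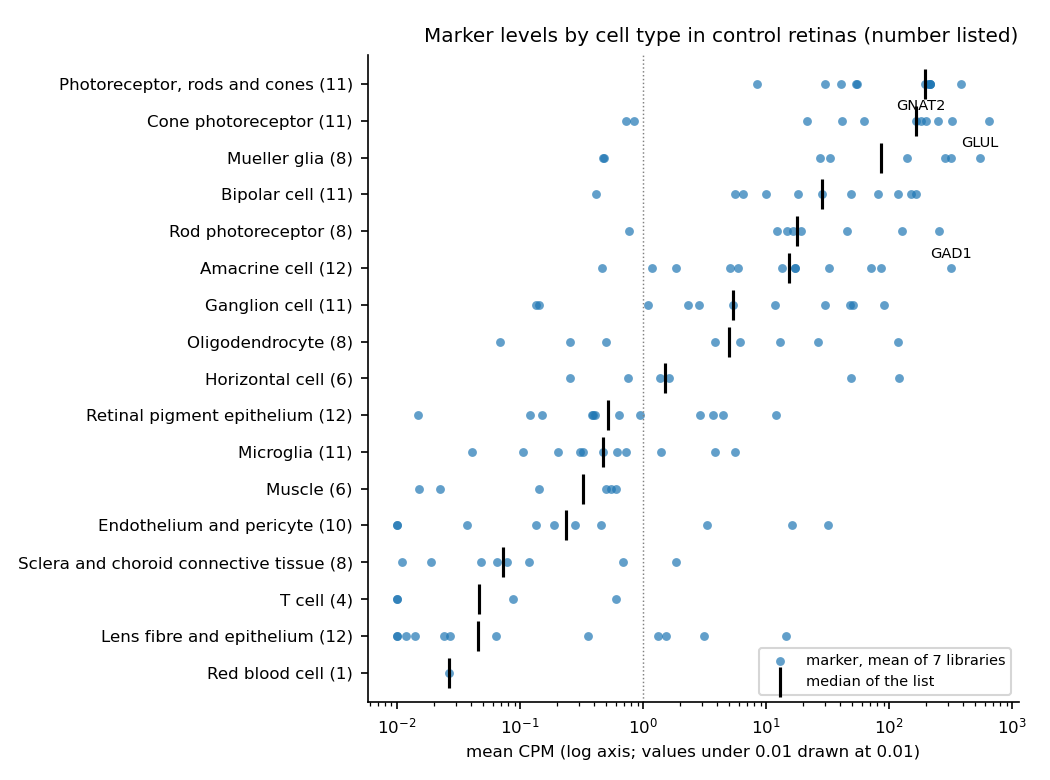
Mean CPM over the 7 control libraries (log axis) of each listed marker, by cell type, with a bar at the median of the list and a dotted line at 1 CPM. The list medians fall from 195 CPM for markers of rods and cones to 1.496 CPM for horizontal cells. They lie below 1 CPM for microglia, T cells, red blood cells (1 listed marker) and the tissues around the retina.

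Cone genes of the steps after the opsin were high in these libraries. PDE6H had 646 ± 43.4 CPM, GNGT2 323 ± 57.3 CPM, the catalytic phosphodiesterase subunit PDE6C 249.8 ± 24.4 CPM and the cone arrestin ARR3 200.1 ± 22.8 CPM (SD, n = 7). The cone channel subunits were lower, CNGA3 with 41.01 ± 9.58 CPM and CNGB3 with 21.6 ± 3.44 CPM. Among cone opsins, the red opsin OPN1LW had 72.97 to 221 CPM with a median of 168 and the green opsin OPN1MSW had 41.4 to 82.4 CPM with a median of 58.4. The violet opsin OPN1SW and the blue opsin OPN2SW were listed at means of 0.845 and 0.728 CPM. Per kb of span the 4 opsins stood at 8.02, 11.1, 1.99 and 0.973 in the same sequence. For OPN1SW and OPN2SW the value per kb exceeds the CPM, so both rows span less than a kb. Whether these short rows cover the whole genes was not tested. Their low CPM therefore does not show that violet and blue opsin RNA was low.

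Rod genes formed a less even group. SAG, the rod arrestin, had 213 to 289 CPM with a median of 262. Other rod genes were lower: PDE6B, a catalytic subunit, had 45.7 ± 9.58 CPM, GNAT1, rod transducin, 19.2 ± 5.69 CPM, CNGA1 16.6 ± 2.999 CPM, and NR2E3, a transcription factor of rods, 0.773 CPM. Per kb of span, GNAT1 at 7.07 stood below GNAT2 at 37.2.

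Of the genes that rods and cones share, the interphotoreceptor matrix genes IMPG1 and IMPG2 had 382 ± 27.6 CPM and 214 ± 17.4 CPM, and the disc rim genes PRPH2 and ROM1 had 214 ± 10.6 CPM and 195 ± 18.95 CPM (SD, n = 7). PDC, phosducin, which binds transducin beta and gamma subunits, was steady at 205 to 228 CPM. RBP3, the retinoid carrier of the space around the outer segments, had 205 ± 25.7 CPM. AIPL1, a chaperone of phosphodiesterase, was the lowest at 8.37 ± 2.44 CPM.

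Müller glia markers spanned a wide range. After GLUL came CA2, carbonic anhydrase, with 319.6 ± 32.2 CPM, SLC1A3, the glial glutamate transporter, with 282 ± 19.1 CPM, and AQP4, a water channel, with 139 ± 20.7 CPM (SD, n = 7). RLBP1, a retinoid binding protein, had 32.9 ± 4.41 CPM and DKK3, a secreted protein, 27.6 ± 3.44 CPM. The transcription factors SOX9 and SOX8 had only 0.482 and 0.469 CPM, so the list median of 85.8 lies between a high and a low group of genes.

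Bipolar cells were marked by TRPM1, the channel of ON bipolar cells, with 165 ± 20.4 CPM, GRIK1, a kainate receptor of OFF bipolar cells, with 151 ± 14.2 CPM, and PRKCA, a kinase of rod and some ON bipolar cells, with 118 ± 6.64 CPM (SD, n = 7). The homeobox gene VSX1 had 80.8 ± 10.7 CPM. Of the 10 tested bipolar markers, 0 reached a 2-fold spread, beside 5.65% of all tested genes. Among amacrine genes, GAD2 had 85.6 ± 5.78 CPM, the transcription factor TFAP2B 71.05 ± 6.303 CPM, and SLC5A7, the choline transporter of starburst cells, 32.4 ± 2.58 CPM. CHAT, which makes acetylcholine, had 5.07 ± 0.564 CPM, and TH, which makes dopamine in a sparse amacrine type, 0.466 CPM. SLC6A9, the glycine transporter, had 9.62 to 24.98 CPM with a median of 17.4, lowest in replicate 5 and highest in replicate 2, a spread of 2.45-fold that fell to 1.96-fold without replicate 2 and 1.68-fold without replicate 5.

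Horizontal cells were marked by PROX1 at 120.2 ± 8.26 CPM and ONECUT2 at 49.02 ± 13.01 CPM (SD, n = 7), both of which other retinal cells can express, whereas LHX1, a factor of axon-bearing horizontal cells, had 1.61 CPM. Ganglion cell markers were led by the neurofilament NEFL at 91.4 ± 19.8 CPM, the glutamate transporter SLC17A6 at 50.5 ± 6.91 CPM, SNCG, gamma-synuclein, at 48.2 ± 7.86 CPM and NEFM at 29.9 ± 7.83 CPM. The factor POU4F1 had 11.8 ± 2.498 CPM, while POU4F2 and POU4F3 had 0.142 and 0.135 CPM. Their summed level was lowest in replicate 1 (191 CPM) and highest in replicate 7 (299), the widest of the neuronal lists at 1.57-fold. Oligodendrocyte genes were present, with the myelin genes MBP at 119 ± 14.4 CPM and CNP at 13.02 ± 2.04 CPM and ERMN, a myelin cytoskeleton gene, at 26.2 ± 5.402 CPM, while the lineage factors SOX10 and OLIG2 had 0.497 and 0.0692 CPM. The MBP and CNP rows overlap ZNF236 and DNAJC7 on the opposite strand, at 44.1 and 43.7 CPM.

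The listed markers of microglia, of blood cells and of tissues next to the retina were low. Of 12 listed pigment epithelium genes, 4 had a mean of at least 1 CPM, and their sum ran from 18.7 CPM in replicate 2 to 32.1 in replicate 7. The highest of them was OCA2, a melanosome transporter, at 12.1 ± 1.76 CPM (SD, n = 7), while the pigment genes TYR, PMEL and MLANA had 0.1496, 0.407 and 0.0149 CPM. Microglia markers summed to 10.9 to 16.3 CPM, with CSF1R at 3.86 CPM and CX3CR1 at a mean of 0.0407. Connective tissue of the sclera and choroid gave a sum of 2.102 to 4.24 CPM, in which COL1A1 had 0.0188 CPM. Muscle markers summed to 1.29 to 2.55 CPM, T cell markers (4 of 8 listed) to 0.438 to 0.889 CPM, and the 1 listed red blood cell marker, SLC4A1, was at 0.0263 CPM. The other 9 red blood cell markers chosen, globin genes among them, were not listed under those symbols, so red blood cells were judged from 1 gene.

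Vessel and lens markers held a few exceptions. KDR, a receptor for vascular growth factor, had 31.5 ± 4.197 CPM and PECAM1, an endothelial adhesion gene, 16.1 ± 3.97 CPM (SD, n = 7), but the endothelial genes CDH5, CLDN5 and TIE1 and the pericyte genes PDGFRB and RGS5 all lay at or below 0.445 CPM except for CDH5 in replicate 2 at 0.471. Lens markers summed to 16.6 to 26.4 CPM, mostly from the crystallin CRYBA4 at 14.6 ± 2.42 CPM, and 7 of 12 stood at or below the floor in the mean, among them CRYAA and MIP at 0.00375 and 0.006899 CPM.

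Most genes differed little between control libraries. The median SD of log2(CPM + 1) over the 11203 genes was 0.17, with quartiles of 0.12 and 0.23, against a median of 0.07 from counting error alone, and the median ratio of the highest to the lowest library was 1.39-fold. The steadiest among genes with at least 50 CPM was GRIA4, a subunit of AMPA receptors, at 101 to 106 CPM (SD 0.02). SMG1, a kinase of RNA surveillance, had 82.5 to 86.1 CPM (SD 0.02), MCF2L, an exchange factor, 101 to 107 CPM and PPP6R3, a phosphatase subunit, 96.4 to 101 CPM (SD 0.03 each). Among the 10 steadiest were also MPP4, a scaffold of photoreceptor terminals, TBC1D9B, LCORL, USP34 and AFF4, whose SDs ran from 0.03 to 0.04.

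A gene was called variable when its highest library was at least 2-fold above its lowest on the CPM + 1 scale, and 633 of 11203 genes were (5.65%). The members nearest the limit were RCC1L at 2.003-fold inside it and YTHDC2 at 1.999-fold outside it. The share called differed with the level: off chromosomes Z and W it took in 9.25% of genes with a mean of 2 to 5 CPM and 1.71% of those with 20 to 100 CPM.

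The largest spreads belonged to the sex chromosomes. In birds the female carries Z and W and the male carries a pair of Z. Of the 25 genes with the largest SD, 20 lie on W, 3 on Z, and 2 elsewhere. HINTW, a W-linked member of the HINT family, had 126 to 145 CPM in replicates 2, 3, 4 and 7, and 0.0955 to 0.549 CPM in replicates 1, 5 and 6. NIPBLL, CHDB1, HNRNPKL, SPIN1W, SMAD2W and ATP5A1W followed the same libraries, and so did all 28 W genes with a mean of at least 1 CPM, each called (100%). LOC100859072, LOC112530611 and LOC112530612, noncoding genes that the chromosome match places on Z, were also high in those 4 libraries and at 0.284 CPM or less in the other 3. Of 554 tested Z genes, 369 were lower in all 4 libraries with W-linked RNA. Of the 554, 93 were called (16.8%), and 80 of the 93 were lower in all 4 of those libraries. Examples were the ribosomal protein gene RPS6 with 67.8 to 142 CPM, ATP5A1Z, an ATP synthase subunit, with 25.8 to 60.4 CPM, and NDUFS4, a subunit of complex I, with 8.23 to 18.4 CPM. Within libraries of the same W-linked RNA status 0 of the W genes and 2 of the Z genes were called.

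Off Z and W, 512 of 10621 genes were called (4.82%), and 295 (2.78%) were when only libraries of the same W-linked RNA status were compared. A range over 4 or 3 libraries cannot exceed that over 7, and this split also parts replicate 2 from replicate 5. Of the 501 called genes on numbered chromosomes, 22 were higher and 6 lower in all 4 libraries with W-linked RNA. Of all 10599 tested genes on those chromosomes, 716 were higher and 140 lower in all 4. Of the 4 mitochondrial rows, all called, 3 were higher in all 4 libraries with W-linked RNA, namely EYY68_mgp13, EYY68_mgr01 and EYY68_mgr02. The margin was small in EYY68_mgr02, at 84.04 CPM in replicate 3 against 81.1 in replicate 5. What part W-linked RNA status had in the mitochondrial rows was not tested. What part W-linked RNA status had in the lower count was not tested. Genes known only by a LOC number were called at 14.5% and genes with another symbol at 3.82%, noncoding RNA genes at 12.9% and protein coding genes at 4.24%. Of the 512, 38 differed at least 4-fold. In the other 7 libraries of the series, which were not used to choose these genes, 201 of the 512 were again at least 2-fold apart, 39.3% of them and 46.5% of the 432 called there, against 4.07% of all genes off Z and W (4.7% with Z and W).

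**Figure D3:**
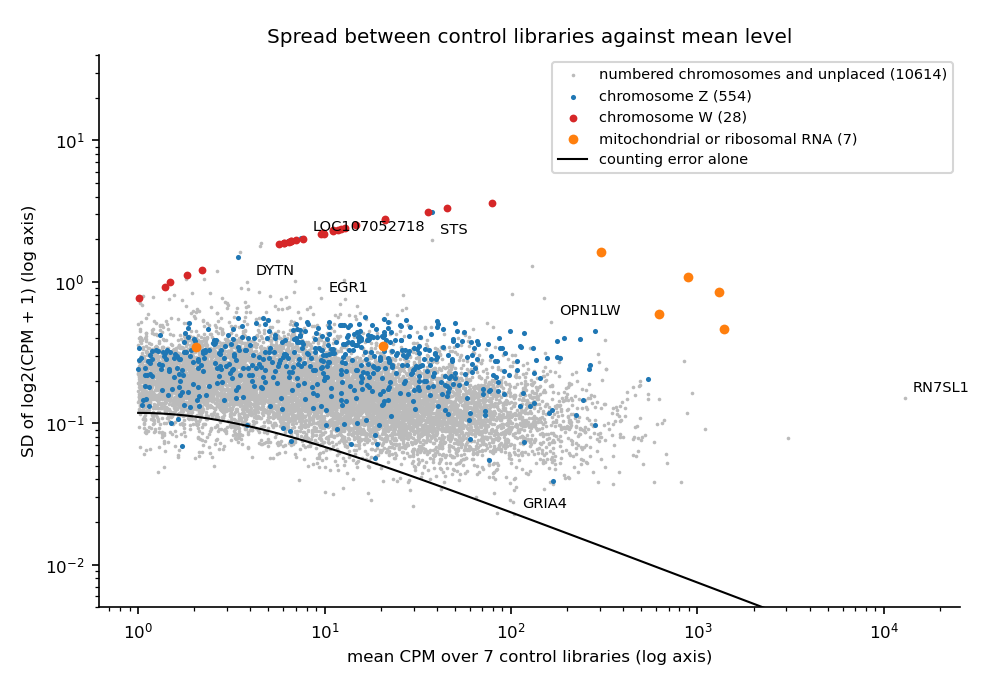
SD of log2(CPM + 1) over the 7 control libraries against mean CPM (both axes logarithmic) for the 11203 genes with a mean of at least 1 CPM, coloured by chromosome class, with a line for the SD that counting error alone gives. The 28 W genes (red) lie along the upper edge, with LOC107052718 and STS among the few genes of numbered chromosomes near them.

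A pair of libraries accounted for much of the spread off Z and W. Replicate 2 was the highest library for 261 of the 512 called genes (51.0%) and replicate 5 the lowest for 227 (44.3%), and for 174 genes both held. Over all 11203 tested genes replicate 2 was highest for 27.5% and replicate 5 lowest for 32.2%. Without replicate 2 the count off Z and W was 298, without replicate 5 it was 347, and without both it was 228. The first principal component off Z and W held 33.7% of the variance and set replicate 2 at 22.1 against replicate 5 at -20.6, with the other 5 libraries between -3.82 and 2.29. The second held 21.4% and set replicate 4 at 19.5 against replicate 1 at -13.3. With all chromosomes the first component held 45.4% and separated replicates 1, 5 and 6 from the 4 libraries with W-linked RNA, and of its 100 largest loadings 28 were on W and 42 on Z.

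**Figure D4:**
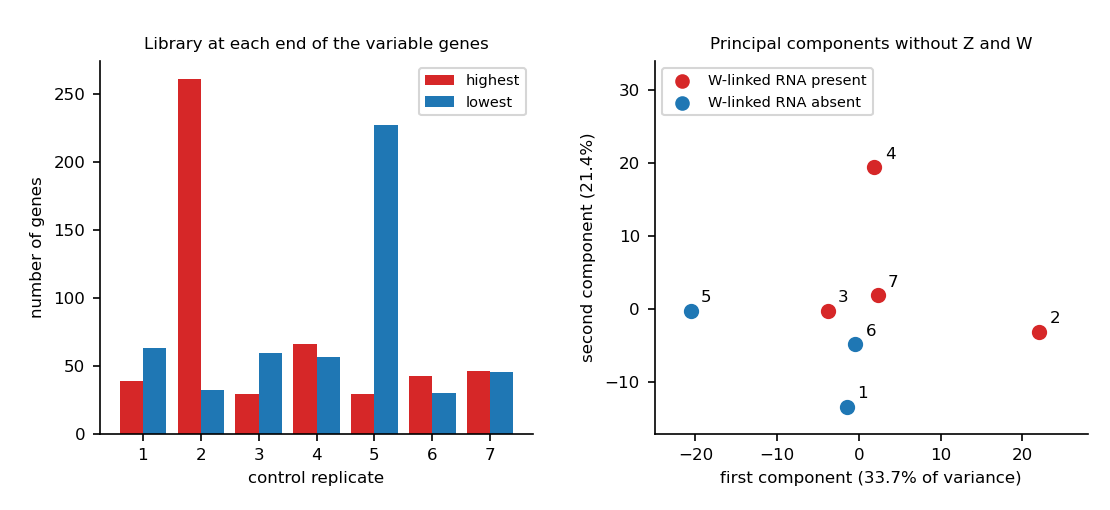
Left, number of the 512 variable genes off Z and W for which each control library was the highest (red) or the lowest (blue). Right, positions of the 7 control libraries on the first (33.7% of variance) and second (21.4%) principal components without Z and W, coloured by W-linked RNA; replicates 2 and 5 lie at opposite ends of the first.

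The genes highest in replicate 2 were led by ribosomal and mitochondrial RNA. EYY68_mgr02, a mitochondrial ribosomal RNA, had 59.6 to 1273 CPM with a median of 84.04, and EYY68_mgr01 differed 8.28-fold. In both, replicate 2 was far above all others and replicate 7 was second. All 5 ribosomal RNA genes and all 4 mitochondrial rows with at least 1 CPM were called, with EYY68_mgr01 and EYY68_mgr02 counted in both sets. BSN, bassoon, a scaffold of the synaptic active zone, had 2.26 to 13.8 CPM with a median of 3.35 and followed the same order, with replicate 7 second at 7.27 CPM. Of 9 tested ganglion cell markers, 3 were called (33.3%, beside 5.65% of all tested genes), namely THY1, RBPMS2 and NEFM. NEFM, at 19.3 to 42.6 CPM, was lowest in replicate 3 and highest in replicate 7, and fell to 1.75-fold and 1.82-fold without each of these. THY1, a surface protein of these cells, had 2.76 to 13.6 CPM with a median of 4.06, again with replicate 2 highest and replicate 7 next. Without replicate 2, THY1 differed 1.99-fold, and RBPMS2, an RNA binding protein of ganglion cells with 1.75 to 5.13 CPM, 1.49-fold, and RBPMS2 differed 1.90-fold without replicate 5. NAV1, a guidance gene of growing axons, had 0.774 to 5.41 CPM with a median of 1.42, and SYCP3, a meiotic chromosome protein, was high in replicate 2 alone at 8.35 CPM, with the others at 2.10 to 2.95.

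**Figure D5:**
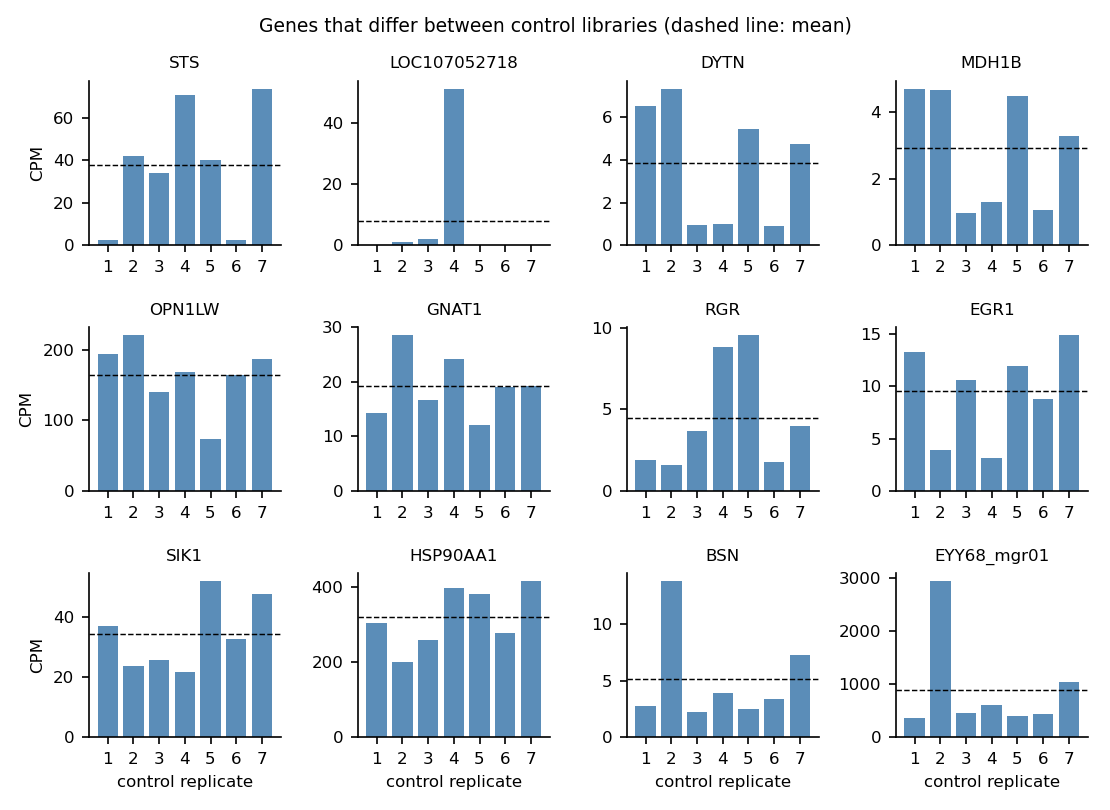
CPM of 12 genes in each of the 7 control libraries (bars) with the mean (dashed line). STS is low in replicates 1 and 6, LOC107052718 is high in replicate 4 alone, DYTN and MDH1B are low in replicates 3, 4 and 6, and OPN1LW is low in replicate 5.

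Some genes took separate levels in different libraries. STS, the sulfatase that frees steroids from their sulfate (chromosome 1, 127707646 to 127827227), had 2.39 and 2.22 CPM in replicates 1 and 6 and 34 to 73.5 CPM in the other 5. Replicates 1 and 6 lack W-linked RNA, but so does replicate 5, in which STS stood at 39.8 CPM. In the other 7 libraries of the series STS differed 2.56-fold. The STS row overlaps PUDP on the opposite strand, and whether the authors counted by strand is not given in the sources used here. LOC107052718 and LOC107052719, overlapping genes on chromosome 1 (32724391 to 32731660), reached 51.4 and 31.4 CPM in replicate 4 alone, with at most 2.002 and 0.192 CPM elsewhere. LOC770705, also on chromosome 1, had 8.69 to 11.9 CPM in replicates 2, 3 and 4 and at most 0.465 CPM in the other 4, and LOC107054480 on chromosome 13 had 5.33 to 11.8 CPM in replicates 3, 5 and 7 and at most 0.154 elsewhere. Outside the gene lists, STS and LOC107052718 were named because they are among the 25 genes with the largest SD, while the other genes in this paragraph, NAV1, SYCP3, EYY68_mgr02, and the unlisted genes named from here on were chosen after their values were seen.

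DYTN and MDH1B, neighbours on chromosome 7, were low in the same libraries. DYTN, a relative of dystrobrevin, had 4.78 to 7.35 CPM in replicates 1, 2, 5 and 7 and 0.879 to 0.990 in replicates 3, 4 and 6. MDH1B, a relative of malate dehydrogenase, had 0.972 to 4.71 CPM with a median of 3.29, with the same 3 libraries low. In the other 7 libraries they differed 1.52-fold and 1.47-fold, below the limit. TDRD12 and FAAP24 on chromosome 11 were both high in replicates 4 and 6, TDRD12 with 10.4 and 11.6 CPM against 3.57 to 4.43 in the others and FAAP24 with 7.90 and 8.46 against 2.55 to 4.04. NDUFA13, a subunit of complex I, had 12.6 to 13.6 CPM in replicates 1, 2, 6 and 7 and 6.02 to 7.10 in replicates 3, 4 and 5. Several of these rows overlap others with higher levels, DYTN with ADAM23 at 66.8 CPM, MDH1B with FASTKD2 at 5.37, TDRD12 with NUDT19 at 11.6 and FAAP24 with RHPN2 at 23.9.

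Other named genes with spread over 3-fold had varied roles. CD226, a receptor of immune cells, had 2.86 to 21.6 CPM with a median of 13.1, low in replicates 3 and 5, in a row that overlaps DOK6 on the opposite strand at 93.8 CPM. SLC6A19, a transporter of neutral amino acids, had 0.7804 to 7.06 CPM with a median of 1.97, with replicates 1, 2 and 6 high. NEBL1, a row named for the actin binding protein nebulette, had 44.8 to 213 CPM with a median of 151, with replicate 3 apart at the bottom and the next library at 125 CPM. EGLN3, an oxygen sensing enzyme, had 7.77 to 29.7 CPM with a median of 12.7, highest in replicate 3. FN1, fibronectin, had 1.21 to 6.35 CPM with a median of 5.33, lowest in replicate 3 with the rest at 4.05 CPM or more.

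Among photoreceptor genes, OPN1LW, GNAT1 and AIPL1 were called. They were 1 of 9 tested cone genes, 1 of 7 rod genes and 1 of 11 shared genes, beside 5.65% of all tested genes. OPN1LW was 72.97 CPM in replicate 5 and 140 to 221 CPM in the other 6 libraries, a spread of 3.002-fold that fell to 1.58-fold without replicate 5. In the other 7 libraries of the series it differed 3.66-fold. GNAT1 had 12.1 to 28.6 CPM, lowest in replicate 5 and highest in replicate 2, and fell to 1.93-fold without replicate 2 and 1.92-fold without replicate 5. AIPL1 had 5.52 to 12.6 CPM, lowest in replicate 2 and highest in replicate 7, and fell to 1.72-fold without replicate 2 and 1.80-fold without replicate 7. In replicate 5 the green opsin was also at its lowest, 41.4 CPM, and the summed cone list was lowest there (1686 CPM against 1773 to 2077 elsewhere), but PDE6C and IMPG1 were at their highest. The median SD of log2(CPM + 1) was 0.22 for the cone list, 0.30 for rods and 0.14 for shared photoreceptor genes, beside 0.17 for all tested genes.

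RGR and RPE65, enzymes and opsins of the visual cycle that mark the pigment epithelium and, for RGR, also Müller glia, were both called. They were the 2 called of 4 tested pigment epithelium genes (50%, beside 5.65% of all tested genes). RGR had 1.595 to 9.57 CPM with a median of 3.65, with replicates 4 and 5 high at 8.81 and 9.57 CPM and replicates 1, 2 and 6 below 2 CPM. RPE65 had 1.99 to 7.003 CPM with a median of 3.26, with replicate 6 highest, and both were lowest in replicate 2, as were 3 of the 4 tested members of the list (75%, beside 12.5% of all tested genes). LRAT and OCA2, of the same list, stayed within 1.46-fold, and the pigment genes TYRP1 and PMEL had means of 0.632 and 0.407 CPM.

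Of 14 tested immediate early genes, which respond within minutes to activity or stress, 3 were called (21.4%, beside 5.65% of all tested genes). EGR1, a transcription factor, had 3.12 to 14.9 CPM with a median of 10.6, and replicates 2 and 4 were low at 3.95 and 3.12 CPM while the other 5 had 8.82 to 14.9. SIK1, a kinase induced by cyclic AMP, had 21.7 to 52.03 CPM with a median of 32.8, and DUSP1, a phosphatase of MAP kinases, had 1.47 to 4.19 CPM with a median of 2.801, both lowest in replicate 4. SIK1 was highest in replicate 5 and DUSP1 in replicate 7. DUSP1 fell to 1.58-fold without replicate 4 and 1.73-fold without replicate 7. Of the 14, 6 were lowest in replicate 4 (42.9%, beside 7.90% of all tested genes). The EGR1 row overlaps LOC107049815 on the same strand, at 7.54 CPM. FOS did not reach a mean of 1 CPM (0.34003 to 2.17 CPM). The list's median SD was 0.25, beside 0.17 for all tested genes.

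Most chaperone genes were lowest in the same library. Their sum was 702 CPM in replicate 2 and 1229 in replicate 7, and 11 of 16 tested members were lowest in replicate 2 (68.8%), beside 12.5% of all tested genes. HSP90AA1, the inducible cytosolic HSP90, had 199.5 to 417 CPM with a median of 305, and HSPA8, the constitutive cytosolic HSP70, had 198 to 366 CPM with a median of 296, both lowest in replicate 2 and highest in replicate 7. HSP90B1 and HSPA5, chaperones of the endoplasmic reticulum, had 64.5 to 119.99 and 37.5 to 63.7 CPM with the same libraries at the ends. HSP90AA1 and DNAJA1, a cochaperone on Z with 9.86 to 22.1 CPM, were the 2 called of 16 (12.5%, beside 5.65% of all tested genes). Without replicate 2 they differed 1.61-fold and 1.56-fold, and without replicate 7 HSP90AA1 differed 1.99-fold. Replicate 2 is also the library with the most ribosomal RNA, 2.65% of the listed CPM, and the part of that in these values was not tested beyond rescaling to the sum without ribosomal RNA, RN7SL1 and the mitochondrial sequence, under which both stayed called.

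Most glycolysis genes were lowest in replicate 5, by less than 2-fold. Of 18 tested members 9 were highest in replicate 2 (50%, beside 27.5% of all tested genes) and 11 lowest in replicate 5 (61.1%, beside 32.2%). Of the 18, 0 were called, beside 5.65% of all tested genes. GAPDH had 684 to 1197 CPM with a median of 818, ALDOC 201 to 359 CPM with a median of 289 and PGAM1 119 to 198 CPM with a median of 159.8. The synaptic list also had 9 of 17 members highest in replicate 2 (52.9%) and 8 lowest in replicate 5 (47.1%), with BSN the only one called. Cholesterol synthesis was highest in replicate 3 for 9 of 14 tested genes (64.3%, beside 11.0% of all tested genes), among them HMGCS1, the synthase that opens the pathway, with 60.3 to 103 CPM with a median of 72.8, INSIG1, a feedback regulator, with 29.96 to 57.5 CPM with a median of 34.95, and FDFT1, squalene synthase, with 19.3 to 42.02 CPM with a median of 29.4. FDFT1 was the only one called, and fell to 1.59-fold without replicate 3 and 1.72-fold without replicate 5. The clock list had 0 of 21 called, beside 5.65% of all tested genes, and its sum ran from 1347 to 1410 CPM, 1.05-fold. PER2 and CRY1, both repressors of the loop, had 122 to 191 and 32.1 to 42.7 CPM.

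Ribosomal protein genes had 3 of 32 called (9.38%, beside 5.65% of all tested genes), of which RPS6 and RPL17 lie on Z, and RPLP1 had 8.59 to 20.6 CPM with a median of 14.7, lowest in replicate 5. Each of the 3 calls was lost without 1 library: RPS6 fell to 1.97-fold without replicate 2, RPL17 to 1.64-fold without replicate 7, and RPLP1 to 1.81-fold without replicate 5 and 1.93-fold without replicate 6. The oxidative phosphorylation list had 4 of 20 called (20%), ATP5A1W on W, where 100% of genes were called, and ATP5A1Z, COX7C and NDUFS4 on Z, where 16.8% were. NDUFS4 fell to 1.97-fold without replicate 6. Of 12 tested topographic genes, which pattern the retina from front to back and top to bottom, only EFNB1, an ephrin, was called, with 4.25 to 11.2 CPM with a median of 6.12, highest in replicate 2, and it fell from 2.33-fold to 1.46-fold without replicate 2 and 1.79-fold without replicate 5. Among 10 bipolar, 4 horizontal, 6 Müller glia and 5 oligodendrocyte genes tested, 0 were called. The same held for 3 microglia, 7 interferon, 7 neuropeptide and 8 cell division genes. Beside 5.65% of all tested genes, lists this short would often hold no call. Of 31 tested genes with a histone symbol, 11 were called (35.5%, beside 5.65% of all tested genes), 9 of them on chromosome 1. Histone genes can have copies of high similarity, and whether the authors' counting divided reads between them was not tested. HIST1H2BO had 5.69 to 18.9 CPM with a median of 11.9, and H2AFJ, a replacement type histone, had 5.71 to 18.4 CPM with a median of 11.5, both lowest in replicate 4.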

How the data were processed

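RNA-seq of control retina was analysed from 1 deposited table of 18631 genes in 14 libraries, of which the 7 control libraries were described. Its values are CPM, deposited by the authors with an added 0.0001, which was subtracted here. The submitters' processing notes name STAR, Partek and the GRCg6a build. Versions, annotation, counting rules and use of strand are not given in the sources used here, so overlapping and antisense genes are uncertain. Positions are those of the deposited table. Chromosome names were assigned by majority from 15419 symbols matched to the RefSeq GRCg7b gene table.

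Depth was inferred from the most frequent small CPM value in each library, taken as a single read. Too few values were whole multiples of it (92.8% to 93.6%) to treat them as counts. Only the comparison of library pairs rounded them to whole reads. The spread of a gene is the SD of log2(CPM + 1) or the highest over the lowest library on the CPM + 1 scale, for genes with a mean of at least 1 CPM, and a gene was called at 2-fold. No test between groups was made. The spread calculation was tested on simulated data. Principal components used log2(CPM + 1), centred by gene.

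The 7 libraries, the gene lists and the rules were chosen with earlier results of these data known. Genes were named as the 25 highest in CPM, the 15 highest per length, the 25 with the largest SD, the 10 with the smallest SD at 50 CPM or more, the markers GNAT2, GLUL and GAD1, and up to 4 members of each list by level and 4 by spread. Further members of the lists were named for their role. Some genes that the rule covers are not reported here. The naming rule foresaw coding length, for which annotated gene span was used. Alternatives were other pseudocounts, filters, fold limits and scalings, and leaving out libraries. Scripts ran in Python 3.11.15 with pandas 2.3.3 and NumPy 2.4.6, and figures were drawn with matplotlib 3.10.9.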

Additional observations from a re-analysis of the deposited data

Results flagged for a closer look

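Of 241 sets of 7 control values, 12 held a library far from the other 6 (4.98%), and chance alone sets apart about 1 in 20. Of the 12, 4 lay in replicate 2, 5 in replicate 5, 2 in replicate 4 and 1 in replicate 7.

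In replicate 5, 4 genes stood low and 1 high. OPN1LW had 73.0 CPM there and 140 to 221 elsewhere, the glycolytic enzymes ALDOC and PFKL had 200.5 and 3.87 CPM against 281 to 359 and 6.65 to 7.79, and SNAP25 had 451 CPM against 499 to 537. BTG2, an immediate early gene, was high at 14.4 CPM against 8.59 to 10.7.

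In replicate 2, RLBP1 of Müller glia was high at 42.6 CPM against 29.5 to 33.6, and the synaptic gene STX1A at 77.5 CPM against 41.9 to 54.1. The T cell genes CD4 and CD3D had 0.0262 CPM each in replicate 2, the value of a single read, and 0 elsewhere.

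In replicate 4, DYNC1H1 was high at 737 CPM against 659 to 688, and LOC107052718 at 51.4 CPM against at most 2.002. In replicate 7, PDE6H was low at 562 CPM against 638 to 696.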

How the results depend on the processing

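The number of variable genes depended on the definition. Beside 633 as reported, it was 1617 with a pseudocount of 0.1, 129 with a pseudocount of 5, 306 with a mean of at least 5 CPM, 3672 at 1.5-fold and 115 at 3-fold. Leaving out 1 library at a time gave 394 to 590, with 394 without replicate 2, and 298 to 477 off Z and W, with 298 without replicate 2. The first component held 45.4% of the variance, 51.3% with a pseudocount of 0.1, 33.7% without Z and W, and 44.9% to 50.4% without 1 library. In alternatives chosen after seeing the data, the count was 297 within libraries of the same W-linked RNA status and 295 when Z and W were also left out, and it was 228 off Z and W without replicates 2 and 5. Likewise, without ribosomal RNA, RN7SL1 and the mitochondrial sequence the 10 highest genes held 3.43% of the listed CPM in place of 7.58% and the 50 highest 9.59% in place of 13.8%. Ranges within the same W-linked RNA status span fewer libraries, which by construction cannot raise the count. Where no construction of the alternative shows it, the cause was not tested. Of 36 pairs of cell-type lists, 33 kept their order per gene span, 35 by mean log2 level and 35 or 36 without 1 library. Of 52 genes named for spread or called in a list, 34 stayed at 2-fold in each of 11 alternatives, among them all 25 with the largest SD. Levels per coding length were not run, since no such lengths were used here. No paired analysis was possible because there is 1 group and replicate numbers follow accession order.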

Other observations

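P3H3, named after its value was seen, was the gene with the 28th highest mean, at 492.5 CPM (409 to 576 in the 7 libraries). It encodes a collagen-modifying enzyme, whereas connective tissue markers had a median of 0.0721 CPM. In the RefSeq GRCg7b gene table its neighbour is GNB3, the cone transducin beta subunit, which is not a row of the table analysed here. Whether reads of that gene entered the P3H3 row was not tested.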
